A study of Mus musculus with 4 samples.

Results

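Plac8, Ly6c2, Chil3, Ms4a4c, Ifitm6 and Hp are 6 mouse genes by which inflammatory monocytes are often recognised, and they were followed here through the immune cells of healing skin. They were taken by their symbols from the deposited count matrices, which listed 21739 symbols in all, and each of the 6 was listed in all 4 libraries. The values below are the number of unique molecular identifiers (UMIs, single captured transcripts) per 1000000 UMIs of a cell class in a library (CPM), and the share of its cells with at least 1 UMI.

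The libraries were made by droplet single-cell sequencing of periwound skin on the seventh day after punch wounding, with 1 library per mouse. All mice were C57/BL6j and 6 weeks old. In the Control group (2 libraries) the wound edge was injected with phosphate-buffered saline, and in the hucMSC-Exo group (2 libraries) with exosomes, which are secreted vesicles, of human umbilical cord mesenchymal stem cells. One label field gives gut as the tissue whereas another gives skin cells, and Krt14, a keratin of the epidermis, had a UMI in 71.6 to 87.2% of the kept cells of a library. Groups were taken from the sample titles. Letters in the matrix names would instead pair Control 1 with hucMSC-Exo 1 and Control 2 with hucMSC-Exo 2. Which grouping is right was not tested. Each direction, size and call between the groups therefore rests on the titles, and so does each statement about Control or hucMSC-Exo mice. That each library is a mouse of its own comes from the study's methods.

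After quality control 6443 of 7178 deposited cells remained. Values of 4 libraries are listed below in the order Control 1, then Control 2, then hucMSC-Exo 1, then hucMSC-Exo 2, and so the libraries held 952, 2074, 1416 and 2001 kept cells with 4779405, 11243740, 6459007 and 9053510 UMIs. Ptprc, the pan-leukocyte gene, had a UMI in 81.4 to 87.1% of them, and 6 cell barcodes occurred in 2 libraries. Cells were assigned to 14 classes by counting detected marker genes, none of which is among the 6 genes, and 5477 cells entered a single class. The classes are monocyte-like, macrophage-like and so on, and the suffix is dropped below. A monocyte had to show at least 5 of 11 markers, among them Ccr2, F13a1, Vcan and Fn1, and fewer than 3 of the 7 macrophage markers C1qa, C1qb, C1qc, Mrc1, Folr2, Pf4 and Selenop. This gave 417 monocytes, or 41, 122, 99 and 155 in the 4 libraries. The numbers of markers asked for were set after comparing the gates with clusters made without the 6 genes. Of these, 54 had exactly 5 markers, and 38 cells of no class missed the gate with 4. The 10 genes that stood out most in dendritic epidermal T cells held none of their gate markers, and those of basophils held 1.

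Classical monocytes leave the bone marrow through the blood and enter wounds, where they turn into macrophages or dendritic cells and lose part of their original programme. Ly6c2 encodes a surface protein of the Ly6 family anchored by a lipid tail, and the Ly6C antigen is the usual sign of classical monocytes in the mouse, although some T cells and plasmacytoid dendritic cells also carry it. Plac8 encodes a small cysteine-rich protein of leukocytes and epithelia, Chil3 the secreted chitinase-like protein Ym1, Ms4a4c a membrane-spanning protein of the Ms4a family, Ifitm6 a myeloid member of the interferon-induced transmembrane family, and Hp haptoglobin, which binds free haemoglobin and is stored in neutrophil granules.

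The 6 genes lie on 6 chromosomes and are protein-coding in the GENCODE annotation of GRCm38. Plac8 is at chr5:100553725-100572245 on the minus strand, Ly6c2 at chr15:75108158-75111970 on the minus strand and Chil3 at chr3:106147554-106167564 on the minus strand. Ms4a4c is at chr19:11404770-11427246 on the plus strand, Ifitm6 at chr7:141015699-141017924 on the minus strand and Hp at chr8:109575128-109579172 on the minus strand. Of these, 4 have relatives of the same family nearby, the nearest being Ly6c1 at 59.3 kb, Chil4 at 33.9 kb, Ms4a4a at 12.0 kb and Ifitm3 at 4.9 kb.

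The promoters are shown because monocyte genes are commonly controlled by the factors PU.1 and C/EBP. RefSeq sequences (GRCm38.p6) of up to 250 bases before the start were found for 5 of the 6 genes, not for Hp, and bases inside an exon were left out. They are printed 5′ to 3′ on the strand of the gene, with matches to GAGGAAGT (a PU.1 motif) or TTNCNNAA (a C/EBP motif) on either strand in capitals. The intervals are chr5:100572246-100572455 for Plac8, chr15:75111972-75112221 for Ly6c2, chr3:106167565-106167814 for Chil3, chr19:11407411-11407660 for Ms4a4c and chr7:141016909-141017142 for Ifitm6. Those of Ms4a4c and Ifitm6 lie inside the gene spans given above, because the RefSeq start is downstream of the first GENCODE start.
Plac8: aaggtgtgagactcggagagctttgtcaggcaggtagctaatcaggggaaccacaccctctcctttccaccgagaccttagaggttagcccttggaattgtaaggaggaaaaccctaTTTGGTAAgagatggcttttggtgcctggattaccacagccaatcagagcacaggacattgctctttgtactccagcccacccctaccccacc
Ly6c2: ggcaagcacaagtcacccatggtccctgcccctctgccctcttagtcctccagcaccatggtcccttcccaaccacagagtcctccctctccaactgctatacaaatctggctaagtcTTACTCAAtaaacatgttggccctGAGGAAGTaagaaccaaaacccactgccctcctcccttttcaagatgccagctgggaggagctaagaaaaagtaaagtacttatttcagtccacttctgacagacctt
Chil3: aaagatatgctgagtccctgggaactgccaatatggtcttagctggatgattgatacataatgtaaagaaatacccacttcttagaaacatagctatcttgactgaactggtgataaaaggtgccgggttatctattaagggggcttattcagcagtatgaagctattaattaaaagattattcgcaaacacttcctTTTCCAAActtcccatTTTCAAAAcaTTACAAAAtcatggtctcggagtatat
Ms4a4c: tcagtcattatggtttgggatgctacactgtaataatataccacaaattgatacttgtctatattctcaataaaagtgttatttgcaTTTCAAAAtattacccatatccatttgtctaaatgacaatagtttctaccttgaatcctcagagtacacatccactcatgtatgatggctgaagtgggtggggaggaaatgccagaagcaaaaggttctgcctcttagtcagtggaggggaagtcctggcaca
Ifitm6: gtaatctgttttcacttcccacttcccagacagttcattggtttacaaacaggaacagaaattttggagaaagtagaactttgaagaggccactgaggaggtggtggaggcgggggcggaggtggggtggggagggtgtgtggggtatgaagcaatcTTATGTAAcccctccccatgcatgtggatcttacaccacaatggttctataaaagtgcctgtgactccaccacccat

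Each of the 5 promoters held the C/EBP letters, which 36.8% of all 32851 RefSeq promoters of this length hold. The Chil3 promoter held 3 such matches, at 53, 37 and 27 bases before the start, and the other 4 held 1 each. The PU.1 letters were found in the Ly6c2 promoter only, 108 bases before its start and between the C/EBP match at 132 and the start, and 2.44% of all promoters hold them. The letters GAAA, any 2 bases and GAAA again, a motif of interferon regulatory factors, were in none of these windows, and 2.98% of all promoters hold them.

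Chil3 and Hp were measured almost only in myeloid cells, whereas Plac8 and Ly6c2 were also present in plasmacytoid dendritic cells, basophils, NK cells and CD8 T cells. The mean level of Chil3 over the libraries was 624 ± 197 CPM (SD, n = 4) in monocytes, 246 ± 306 (n = 3) in osteoclast-like macrophages, 90.2 ± 19.7 (n = 4) in macrophages and 45.8 ± 22.3 (n = 4) in neutrophils. These 4 classes overlapped with their neighbours in that order, and below them conventional dendritic cells held 7.92 ± 15.3 CPM (n = 4). In the lymphoid classes 1 UMI of Chil3 was counted in all, and Hp had a mean level of at most 3.53 CPM. The mean level of Hp was 662 ± 145 CPM (n = 4) in neutrophils, 190 ± 84.9 (n = 4) in monocytes, 48.0 ± 12.8 (n = 3) in osteoclast-like macrophages and 15.4 ± 9.26 (n = 4) in macrophages, and the libraries of the first 3 classes did not overlap with those of the next.

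**Figure D1:**
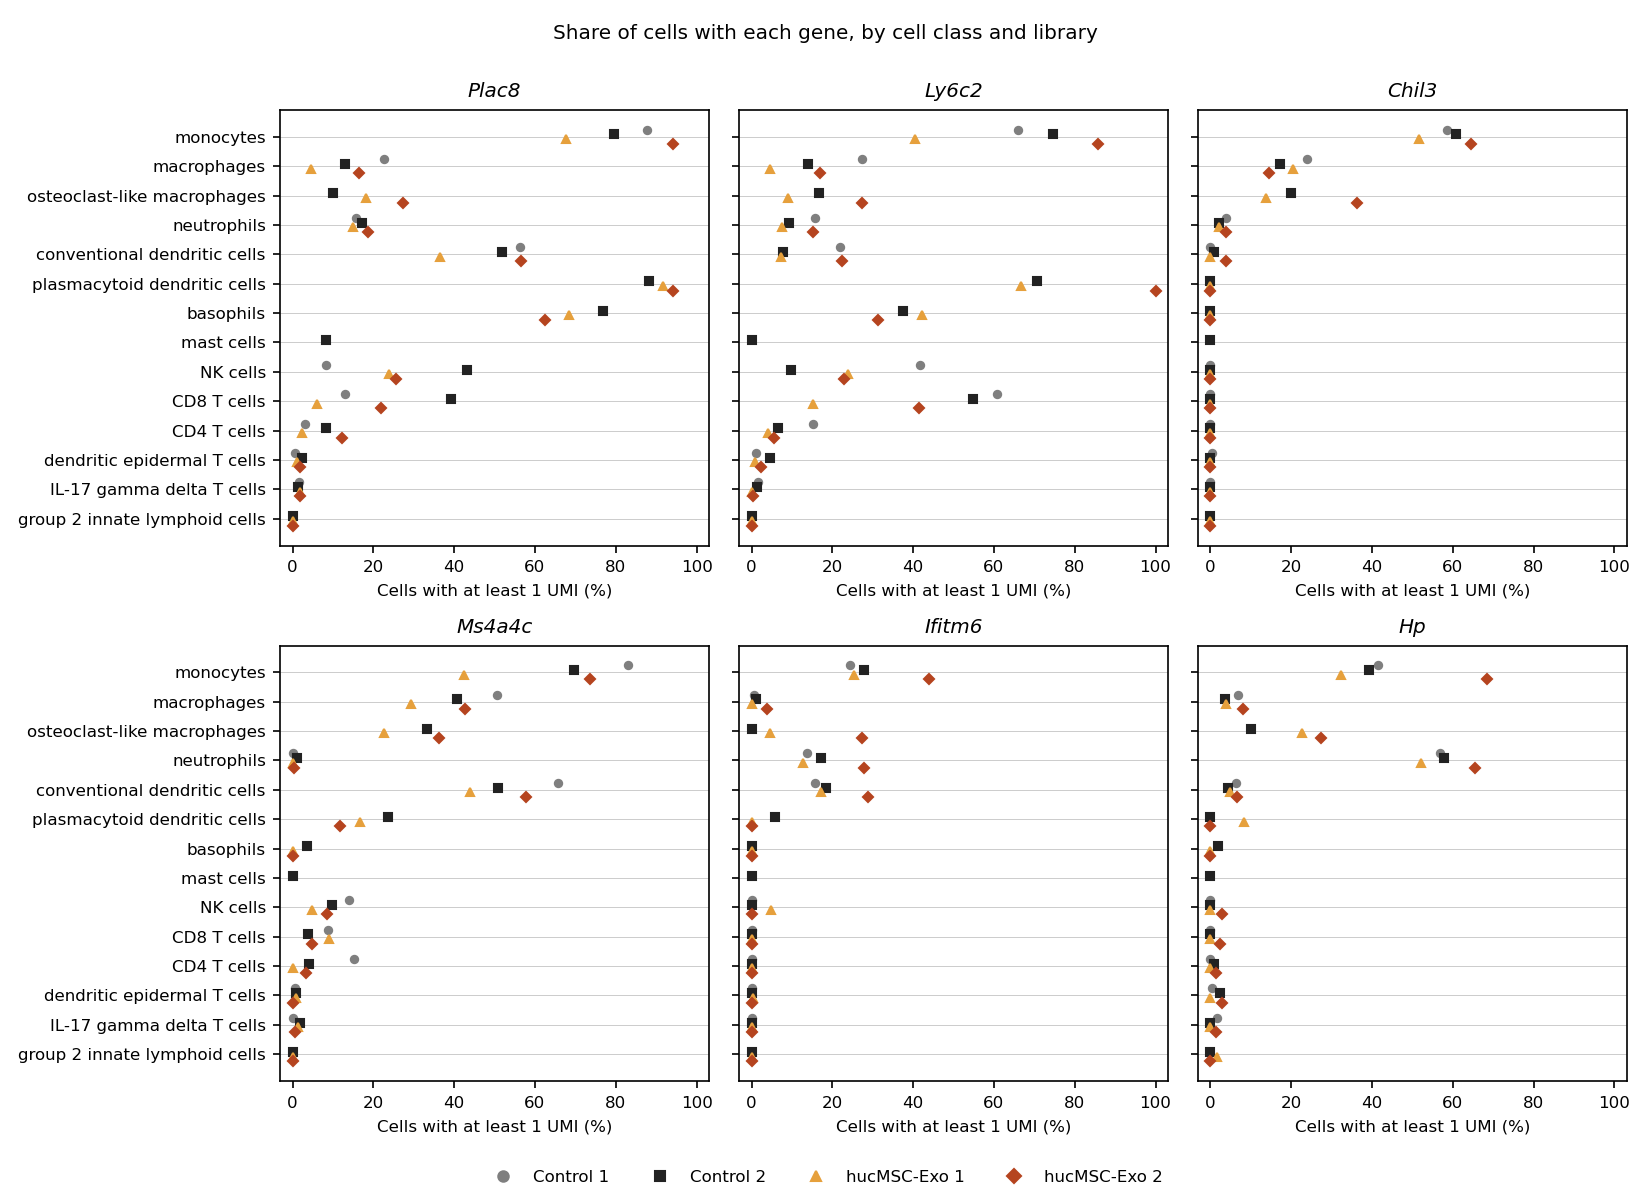
Share of cells with at least 1 UMI of each gene (x axis, %) in 14 cell classes (y axis), 1 symbol per library with at least 10 cells of the class. Chil3, Ifitm6 and Hp lie near 0 in the lymphoid classes, and Plac8 and Ly6c2 are high in monocytes and plasmacytoid dendritic cells and spread widely between libraries in NK and CD8 T cells.

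For Plac8 the mean level was 3834 ± 793 CPM (n = 3) in plasmacytoid dendritic cells and 2420 ± 1118 (n = 4) in monocytes, which overlapped. Conventional dendritic cells with 711 ± 312 CPM (n = 4) and basophils with 670 ± 98.2 (n = 3) followed, and no library of these reached the lowest monocyte value. For Ly6c2 plasmacytoid dendritic cells with 2090 ± 276 CPM (n = 3) did not overlap with monocytes at 996 ± 591 (n = 4), which overlapped with basophils at 786 ± 78.4 (n = 3). CD8 T cells held 544 ± 285 CPM (n = 4) and NK cells 305 ± 253 (n = 4). For Ms4a4c the order was monocytes with 444 ± 272 CPM, conventional dendritic cells with 299 ± 128 and macrophages with 189 ± 75.0 (n = 4 each), and each overlapped with the next. For Ifitm6 neutrophils with 129 ± 69.6 CPM, monocytes with 105 ± 49.6 and conventional dendritic cells with 48.6 ± 13.4 (n = 4 each) overlapped in turn, and no other class overlapped with them.

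Within the monocytes, the libraries differed more for some of the genes than for others. Group 2 innate lymphoid cells, which should lack all 6 genes, gave the background. At a median depth of 4840 UMIs 0 of 109 cells held a UMI of any of the first 5, a count of 0 that allows up to 2.75% of cells with a UMI (3 of the total), and 1 held Hp. Of these cells 9, 18, 65 and 17 came from the 4 libraries, so most were of hucMSC-Exo 1, and they were shallower than the monocytes with their median of 6809 UMIs. Plac8 stood at 2144 and 2525 CPM in Control 1 and 2 and at 1156 and 3856 CPM in hucMSC-Exo 1 and 2, so both the lowest and the highest library belonged to the hucMSC-Exo group. It had a UMI in 87.8, 79.5, 67.7 and 94.2% of the monocytes of these libraries. Ly6c2 stood at 1408, 968, 171 and 1439 CPM and was found in 65.9, 74.6, 40.4 and 85.8% of monocytes. The monocytes of hucMSC-Exo 1 thus lay well under the other 3 libraries in Ly6c2, whether counted as UMIs or as cells. After every cell had been reduced to 1000 UMIs, the share with Ly6c2 was 48.8, 42.6, 12.1 and 55.2%, with the same library at the bottom.

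Chil3 was the most even of the 6 genes in its share of monocytes, with 58.5, 60.7, 51.5 and 64.5% and levels of 654, 728, 339 and 778 CPM. Ms4a4c stood at 825, 338, 189 and 422 CPM and was found in 82.9, 69.7, 42.4 and 73.5% of monocytes. The summed level of 5 interferon-induced genes (Ifit1, Ifit3, Rsad2, Oasl2 and Isg15) in the same monocytes was 1337, 267, 48.0 and 251 CPM, highest and lowest in the same libraries as Ms4a4c, and their part in the values of Ms4a4c was not tested. Ifitm6 stood at 59.8, 92.0, 91.1 and 176 CPM with 24.4, 27.9, 25.3 and 43.9% of monocytes, and Hp at 157, 151, 134 and 316 CPM with 41.5, 39.3, 32.3 and 68.4%. For both, hucMSC-Exo 2 lay above the other 3 libraries.

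Compared with macrophages, all 6 genes were higher in monocytes, where 13% of the 6709 genes tested were higher by the same rule and 26.6% differed in either direction. The median log2 difference of the 6 was 3.48, beside -0.00 for all genes tested. Ifitm6 was at 0.90, 1.76, 0 and 6.03 CPM in the macrophages of the 4 libraries, 14 UMIs in 892 cells, and differed most, by 5.62 ± 0.29 (log2 of summed counts ± SE, adjusted p = 6.66e-11). Plac8 in macrophages was at 223, 117, 32.4 and 204 CPM and differed by 4.29 ± 0.21 (adjusted p = 4.21e-11). Hp, at 23.4, 5.98, 9.0 and 23.4 CPM in macrophages, differed by 3.86 ± 0.22 (adjusted p = 3.45e-10), and no monocyte value of these 3 genes was as low as any macrophage value. The adjusted p-values are from edgeR's quasi-likelihood test on the sums of 4 libraries with the mouse as a block and Benjamini-Hochberg adjustment over all genes tested, here and below.

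Ly6c2 in macrophages was at 228, 110, 12.6 and 180 CPM and Chil3 at 97.1, 115, 76.5 and 72.4 CPM. Their differences were 3.10 ± 0.16 and 2.84 ± 0.17 (adjusted p = 4.27e-11 and 4.75e-10). For Ly6c2 the single low monocyte library, hucMSC-Exo 1, lay within the range of the macrophages of other libraries (171 CPM), and it lay above the macrophages of the same mouse (12.6 CPM). Ms4a4c differed least, with 240, 182, 85.5 and 248 CPM in macrophages and a difference of 1.21 ± 0.14 (adjusted p = 3.81e-06). Its monocyte and macrophage values overlapped, and without the mouse as a block its adjusted p was 0.0537.

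**Figure D2:**
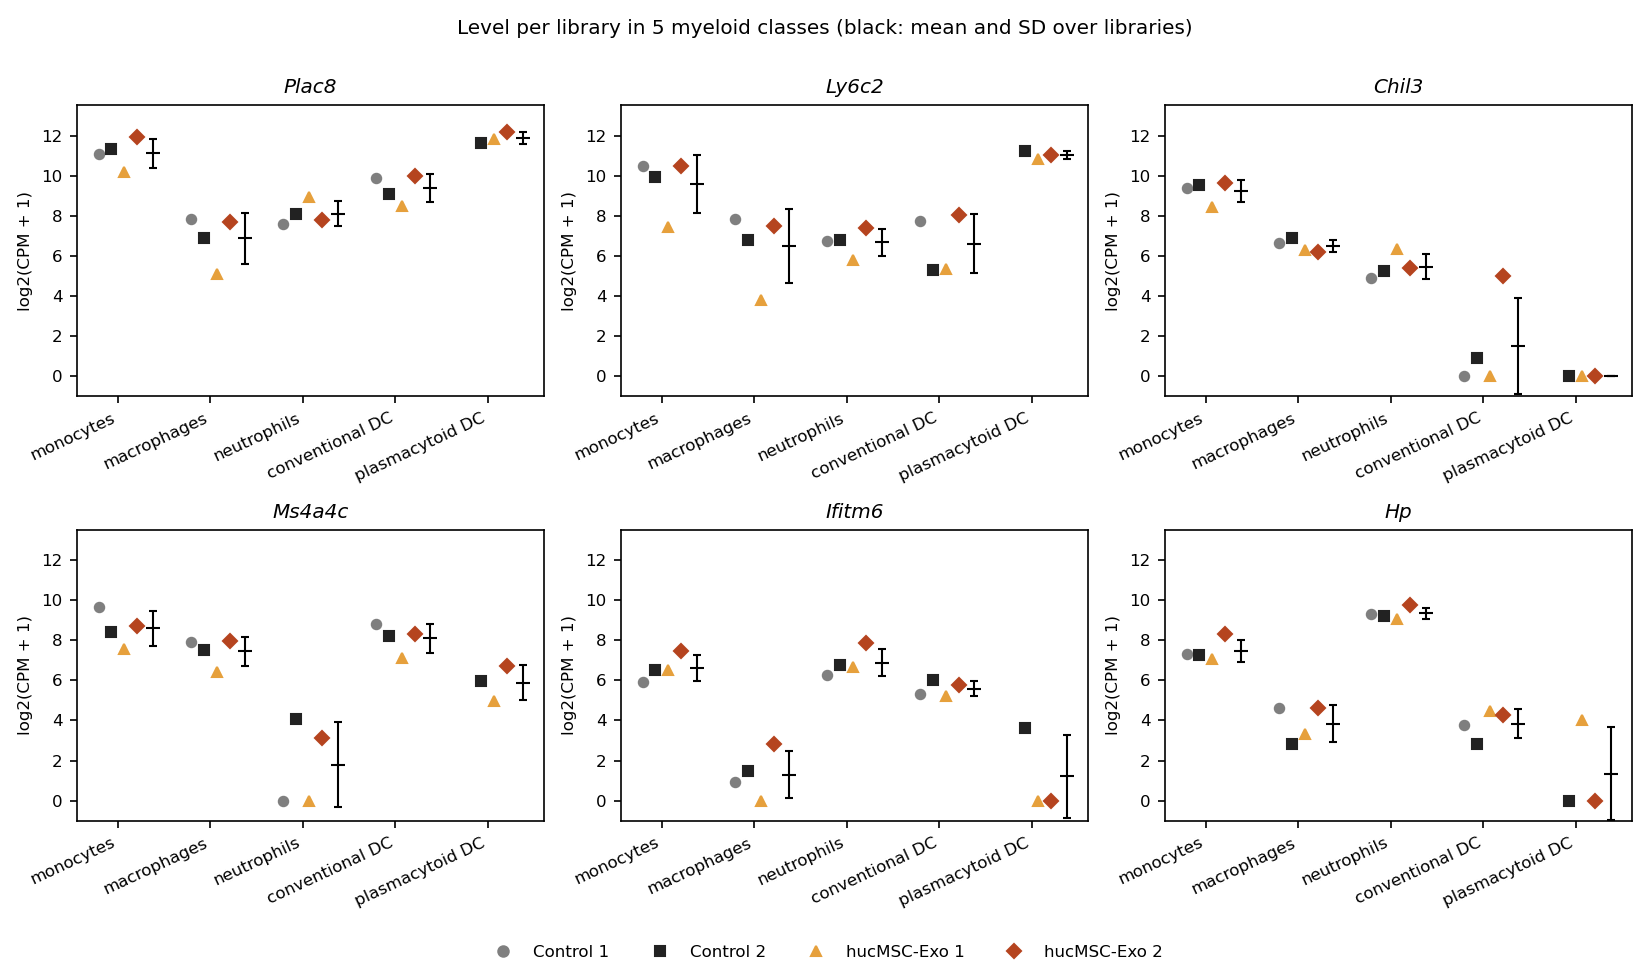
Level of each gene as log2(CPM + 1) in 5 myeloid classes, 1 symbol per library with at least 10 cells of the class, with the mean and SD over libraries in black. The mean of monocytes lies above that of macrophages in each of the 6 panels, with overlapping libraries for Ly6c2 and Ms4a4c, and neutrophils lie above monocytes for Hp.

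The boundary between both gates was not sharp: 278 of the 417 monocytes had at least 1 macrophage marker and 121 had 2. A macrophage had to show at least 4 of the macrophage markers, so cells with 3 entered neither class. Monocytes also had to show monocyte markers, which was not asked of macrophages. The step from 2 to 4 markers thus also crosses from one gate to the other. Along that count the shares of the genes changed at different places. At 1000 UMIs per cell, Plac8 was found in 76.1, 70.1 and 61.2% of monocytes with 0, 1 and 2 macrophage markers and in 19.7, 6.40 and 3.34% of macrophages with 4, 5 and 6 or 7. Ms4a4c was nearly level within the monocytes, with 26.1, 26.8 and 26.4%, and then stood at 17.1, 17.7 and 10.0%, so it was the gene with the highest share in macrophages with 6 or 7 markers. Pooled at 1000 UMIs, Ifitm6 stood at 9.42 and 15.3% with 0 and 1 marker and at 1.65% with 2, before the boundary of the gates. Beyond it the share was 0.658, 0 and 0.196%, so few cells held the gene at this depth. With all UMIs, Ifitm6 was found in 36.7, 40.8 and 18.2% with 0, 1 and 2 markers. It was found in 3.03% with 4, so its share also fell at the boundary. At 1000 UMIs, Hp stood at 18.1, 19.1 and 9.92% and then at 3.29, 2.46 and 0.589%. Ly6c2 went from 44.2 to 34.7% within the monocytes and from 15.8 to 3.34% within the macrophages, and Chil3 from 41.3 to 26.4% and from 11.2 to 4.52%. These shares pool the cells of 4 mice, which are not replicates, and a description is all they allow.

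**Figure D3:**
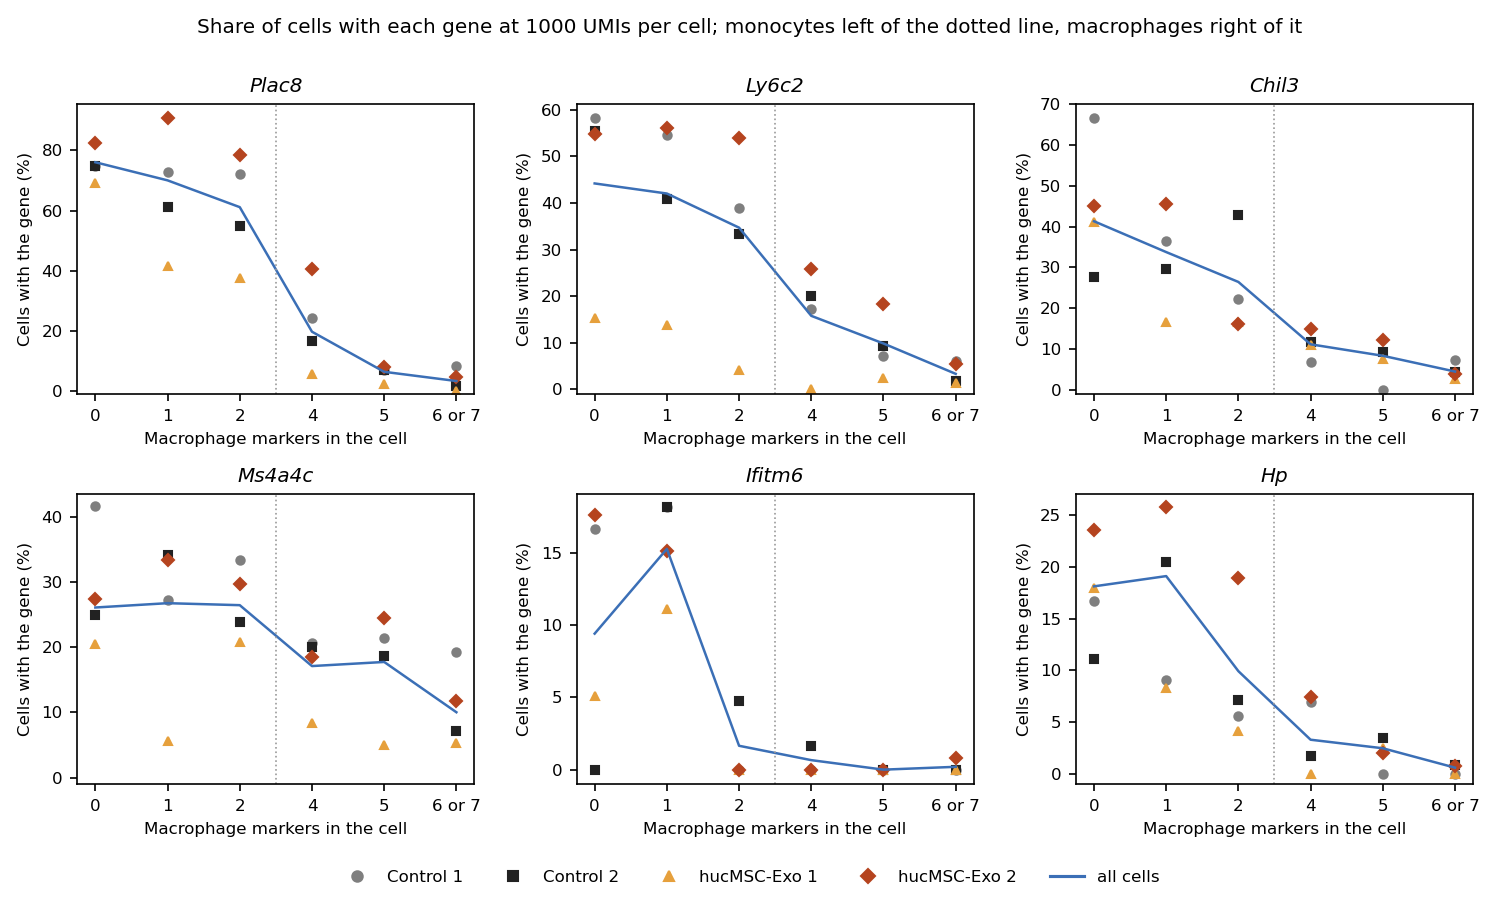
Share of cells with each gene at 1000 UMIs per cell (y axis, %) by the number of macrophage markers detected in the cell (x axis), with 1 symbol per library and a line for all cells. On the line for all cells Ms4a4c stays between 26.1 and 26.8% up to 2 markers, while single libraries vary. On the same line Ifitm6 is at 1.65% of cells with 2 markers, left of the dotted line between monocytes and macrophages. With all UMIs Ifitm6 is in 18.2% of cells with 2 markers and in 3.03% with 4. Cells with 3 markers belong to neither class and are not shown.

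Neutrophils, the other blood-derived myeloid cells of the wound, had more Hp than the monocytes and less of 4 other genes. Their Ifitm6 level was also higher, but less clearly so. They numbered 51, 336, 94 and 532 in the 4 libraries. Of the 6 genes 4 were higher in monocytes than in neutrophils, beside 26.9% of the 5343 genes tested, and 2 were lower, beside 25.6% (52.5% in either direction). Hp stood at 639, 595, 543 and 871 CPM in the neutrophils of the 4 libraries, above each monocyte library, and was lower in monocytes by -2.09 ± 0.19 (adjusted p = 1.94e-07). Ifitm6 stood at 75.2, 107, 103 and 231 CPM, above the monocytes of the same mouse in all 4 mice, with a difference of -0.57 ± 0.20 (adjusted p = 0.0243). That call held in 4 of 12 alternative analyses, whose adjusted p-values ran from 0.0109 to 0.174, and not without Control 2 or without hucMSC-Exo 2.

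Ms4a4c was at 0, 15.8, 0 and 7.71 CPM in neutrophils, 23 UMIs in 1013 cells, and monocytes were higher by 5.10 ± 0.37 (adjusted p = 1.52e-08). The 2 libraries at 0 had too few UMIs to show less than 28.2 CPM in Control 1 and 14.7 CPM in hucMSC-Exo 1, the levels of 3 counts. Chil3 was at 28.2, 36.5, 78.3 and 40.1 CPM with a difference of 3.57 ± 0.31 (adjusted p = 1.12e-07), Plac8 at 188, 274, 494 and 217 CPM with 2.80 ± 0.35 (adjusted p = 5.70e-06) and Ly6c2 at 103, 111, 53.8 and 167 CPM with 2.77 ± 0.26 (adjusted p = 2.78e-07). The median depth of a neutrophil was 2130 UMIs and that of a monocyte 6809, so shares of cells are compared here only at 1000 UMIs. At that depth Hp was in 42.5% of neutrophils and 16.1% of monocytes. The share with Ifitm6, as a mean over libraries, was 9.39% in neutrophils and 9.09% in monocytes.

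Over the neutrophils of all mice together, Plac8 was found more often in those with interferon-induced genes. It was found in 47 of 101 neutrophils with at least 3 of the 5 interferon-induced genes, 46.5% (95% Clopper-Pearson interval 36.5 to 56.7%), and in 69 of 544 with none of them, 12.7% (10.0 to 15.8%), at a median depth of 2086 and 2088 UMIs. The share was 43.1% in the 65 such neutrophils of hucMSC-Exo 2 and 53.8% in the 26 of Control 2. Ly6c2 was found in 23.8% and 9.93% of the same neutrophils, Ifitm6 in 34.7% and 18.2%, and Chil3 in 3.96% and 2.94%. In monocytes with at least 3 of these genes (27 cells) Ms4a4c was found in 96.3% and in those with none (238 cells) in 54.6%, at median depths of 7481 and 6576 UMIs. Ly6c2 was found in 88.9% and 60.5% of the same monocytes, Plac8 in 92.6% and 78.2%, and Hp in 44.4% and 45.0%. The neutrophil comparison and the monocyte shares pool the mice, and shares per library of neutrophils with none of these genes are not given here. Cells with at least 3 of these genes were 15.7, 7.74, 2.13 and 12.2% of the neutrophils of the 4 libraries. Among monocytes, cells with at least 3 of these genes were 22.0, 7.38, 2.02 and 4.52%. The share of such monocytes was highest and lowest in the same libraries as Ms4a4c, so the monocyte split cannot be told apart from differences between libraries. These subsets were chosen after values had been seen, and intervals and limits here and elsewhere cover counting error only.

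Conventional dendritic cells needed at least 2 of 12 markers such as Flt3, Zbtb46 and Cd209a and comprised 263 cells. A cell with enough monocyte markers that also had 2 of these was kept out of the monocytes and could be counted here. All 6 genes were higher in monocytes than in them, beside 18.4% of the 5289 genes tested (35.4% in either direction). The widest difference was that of Chil3, 6.15 ± 0.42 (adjusted p = 1.23e-08), with 0, 0.87, 0 and 30.8 CPM in the dendritic cells of the 4 libraries. Of the 23 UMIs 22 came from hucMSC-Exo 2, and without it the difference was 9.62. Hp stood at 12.9, 6.11, 21.3 and 18.2 CPM and differed by 3.81 ± 0.26 (adjusted p = 9.33e-09). Ly6c2 stood at 212, 38.4, 39.5 and 262 CPM and differed by 2.98 ± 0.27 (adjusted p = 3.03e-07). Plac8 stood at 952, 541, 358 and 995 CPM, with a UMI in 56.2, 51.8, 36.6 and 56.6% of cells, and differed by 1.69 ± 0.14 (adjusted p = 1.17e-07).

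Ifitm6 and Ms4a4c were the genes that dendritic cells and monocytes shared most nearly. Ifitm6 stood at 38.6, 64.6, 36.4 and 54.6 CPM and was higher in monocytes by 0.97 ± 0.23 (adjusted p = 0.00306), and without hucMSC-Exo 2 its adjusted p was 0.0697. Ms4a4c stood at 450, 294, 137 and 315 CPM, with a UMI in 65.6, 50.9, 43.9 and 57.9% of cells, and differed by 0.39 ± 0.15 (adjusted p = 0.0482). This call was lost in 8 of 12 alternatives (adjusted p from 0.0239 to 0.426), among them leaving out Control 1, hucMSC-Exo 1 or hucMSC-Exo 2. Dendritic cells with at least 2 maturation markers such as Ccr7 and Fscn1 (91 cells) and with none (65 cells) had median depths of 9519 and 9399 UMIs. Plac8 was found in 40.7% and 70.8% of them, Ly6c2 in 6.59% and 24.6%, Ifitm6 in 9.89% and 35.4% and Ms4a4c in 45.1% and 55.4%. With Cd209a, the gene of a lectin of dendritic cells close to monocytes (132 cells), Ms4a4c was found in 71.2%, and with Xcr1 or Clec9a, genes of cross-presenting dendritic cells (24 cells), in 33.3% (15.6 to 55.3%). The maturation and subtype splits pool 4 mice and were not tested.

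Plasmacytoid dendritic cells, the interferon-producing dendritic cells marked by Siglech and Ccr9, were few (5, 17, 12 and 17 cells), and Control 1 was left out of their comparison because it had fewer than 10. Of the 3 genes that could be tested against conventional dendritic cells, 2 were higher, beside 13.7% of the 3012 genes tested, and 1 was lower, beside 14.4% (28.1% in either direction). Plac8 stood at 3148, 3653 and 4702 CPM in Control 2, hucMSC-Exo 1 and hucMSC-Exo 2, above each library of conventional dendritic cells, and differed by 2.60 ± 0.22 (adjusted p = 5.09e-05). Ly6c2 stood at 2355, 1804 and 2110 CPM, likewise without overlap, and differed by 4.61 ± 0.52 (adjusted p = 0.000184). Ms4a4c stood at 61.8, 30.6 and 104 CPM and was lower by -2.01 ± 0.29 (adjusted p = 0.000900). Chil3, Ifitm6 and Hp had 0, 2 and 1 UMIs in all 51 cells, and 0 of 51 cells with Chil3 allows up to 5.88% of cells with a UMI.

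Basophils, gated by Mcpt8, Cd200r3 and other genes of granulocytes with IgE receptors, held Plac8 and Ly6c2 and few or no UMIs of the other genes. Plac8 was at 765, 569 and 676 CPM in Control 2, hucMSC-Exo 1 and hucMSC-Exo 2, with a UMI in 76.8, 68.4 and 62.5% of 56, 19 and 16 cells. Ly6c2 was at 848, 813 and 698 CPM with 37.5, 42.1 and 31.2% of cells. In all 92 basophils Chil3 and Ifitm6 had 0 UMIs at a median depth of 3215 UMIs, which allows up to 3.26% of cells with a UMI, and Ms4a4c and Hp were found in 2 and 1 cells. In 31 mast cells 1 cell held Plac8 and none the other 5 genes, at a median depth of 1149 UMIs.

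Among lymphoid cells Plac8 and Ly6c2 were the genes with most counts, beside 21, 11 and 34 UMIs of Ms4a4c in NK, CD8 T and CD4 T cells. Group 2 innate lymphoid cells held neither, as given above. In IL-17 gamma delta T cells 1.64% of 670 cells held Plac8 and 0.597% Ly6c2, at a median depth of 4942 UMIs. NK cells with a median depth of 4495 UMIs held Plac8 in 8.33, 43.1, 23.8 and 25.7% and Ly6c2 in 41.7, 9.80, 23.8 and 22.9% of cells in the 4 libraries. The level of Plac8 was 46.1, 752, 209 and 321 CPM and that of Ly6c2 662, 77.0, 198 and 282 CPM. The Control mice were therefore at opposite ends, with Control 1 lowest in Plac8 and highest in Ly6c2 and Control 2 the reverse, and the 2 hucMSC-Exo mice lay between them for both genes.

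CD8 T cells, with a median depth of 4062.5 UMIs, held Ly6c2 in 60.9, 54.9, 15.2 and 41.5% of 23, 51, 33 and 41 cells, at 684, 765, 129 and 599 CPM. Their hucMSC-Exo 1 library was the lowest, as it was in monocytes and macrophages. Plac8 in CD8 T cells was at 92.4, 505, 21.4 and 223 CPM with 13.04, 39.2, 6.06 and 22.0% of cells. In CD4 T cells Ly6c2 was at 111, 70.5, 37.2 and 30.4 CPM with 15.2, 6.45, 4.07 and 5.48% of cells, and Plac8 at 26.3, 280, 60.7 and 270 CPM with 3.03, 8.29, 2.44 and 12.3%. The CD4 T cells with the regulatory gene Foxp3 (163 cells) held Plac8 in 3.07% (1.00 to 7.01%) and those without it (389 cells) in 9.25% (6.57 to 12.6%), and the split was not tested.

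**Figure D4:**
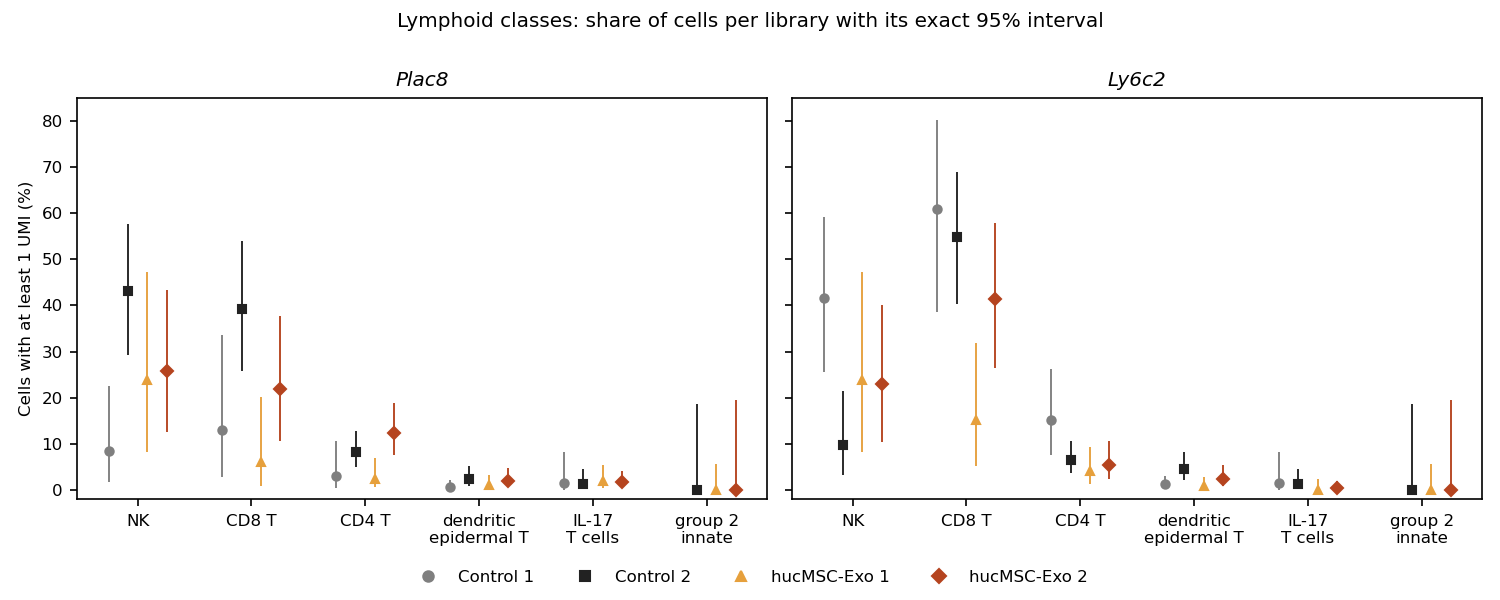
Share of lymphoid cells with at least 1 UMI of Plac8 or Ly6c2 (y axis, %), 1 symbol per library with at least 10 cells and its exact 95% binomial interval. In NK cells Control 1 is lowest for Plac8 and highest for Ly6c2, and group 2 innate lymphoid cells are at 0 for both.

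Against CD4 T cells, Ly6c2 was higher in CD8 T cells by 3.27 ± 0.25 (adjusted p = 2.50e-08) and in NK cells by 2.14 ± 0.36 (adjusted p = 0.000436). By the same rule 3.53% of 3595 genes were higher in CD8 T cells and 11.5% of 3677 in NK cells, and 2 of the 6 genes could be tested in each. In either direction 7.26% of the genes differed for CD8 T cells, with 3.73% lower, and 23.3% for NK cells, with 11.8% lower. Plac8 was higher in NK cells by 1.14 ± 0.23 (adjusted p = 0.00231), which was lost without Control 2 (adjusted p = 0.0820) and without the mouse as a block (adjusted p = 0.246). For CD8 T cells its difference of 0.38 ± 0.27 did not pass (adjusted p = 0.509) and was -0.04 without Control 2. Against IL-17 gamma delta T cells, Ly6c2 was higher in dendritic epidermal T cells by 2.91 ± 0.44 (adjusted p = 2.83e-05), beside 24% of 7012 genes (46% in either direction), the other 5 genes being too low to test. The level in dendritic epidermal T cells was 35.4, 105, 29.7 and 47.1 CPM and in IL-17 gamma delta T cells 3.00, 27.5, 0 and 0.62 CPM. It came from few cells, as 205 UMIs of Ly6c2 lay in 2.03% of 1032 dendritic epidermal T cells with a median of 7 UMIs in each, and 25 of the 27 UMIs in IL-17 gamma delta T cells lay in Control 2, without which the difference was 5.36.

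Most monocytes held several of the 6 genes. At least 4 were detected in 56.1, 58.2, 29.3 and 74.8% of the monocytes of the 4 libraries, all 6 in 54 of 417 and none in 21. In macrophages at least 4 were detected in 5.38% of 892 cells and in osteoclast-like macrophages in 10.9% of 64. In neutrophils the share was 1.68% of 1013 and in conventional dendritic cells 7.22% of 263. Neutrophils were shallower, and at 1000 UMIs the mean number of the 6 genes per cell was 1.96 in monocytes, 0.354 in macrophages, 0.754 in neutrophils and 0.642 in conventional dendritic cells. Plasmacytoid dendritic cells had exactly 2 of the genes in 76.5% of 51 cells, and 80.4% held Plac8 together with Ly6c2.

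**Figure D5:**
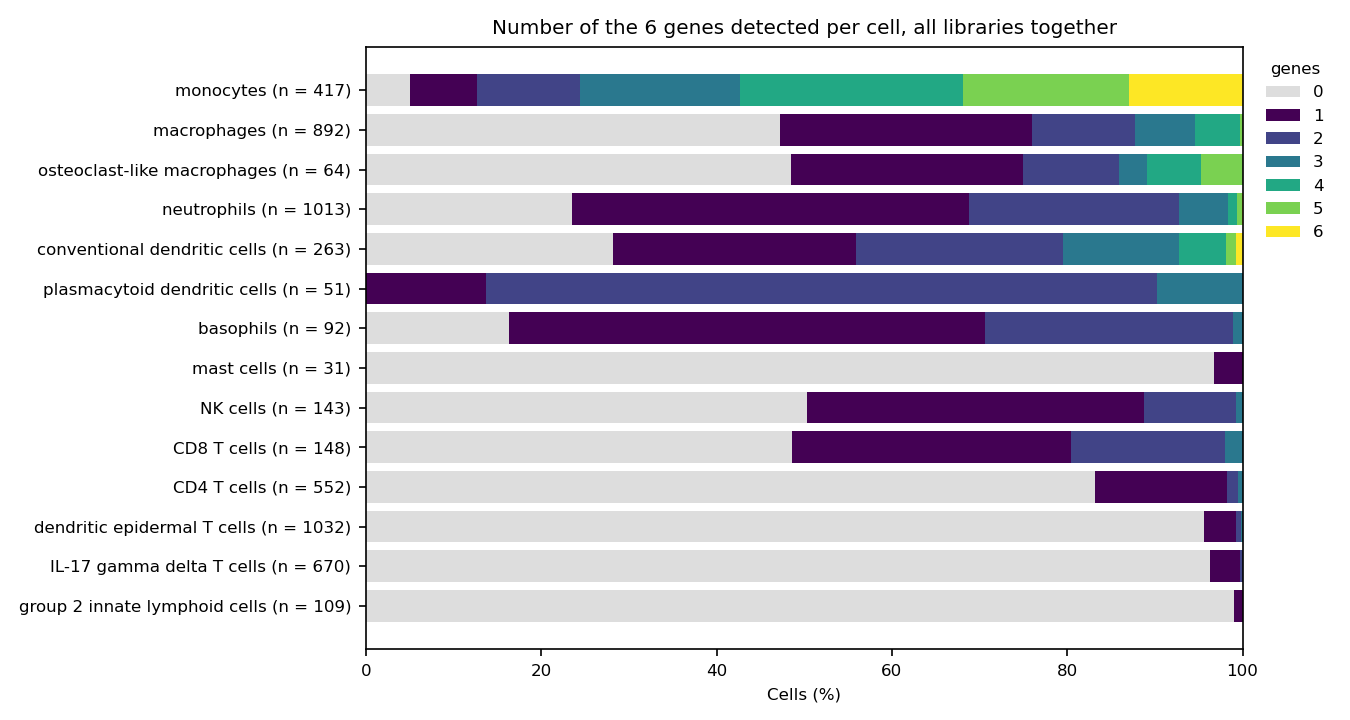
Number of the 6 genes with at least 1 UMI per cell, as a share of the cells of each class (x axis, %), all libraries together. Monocytes have at least 4 genes in 57.3% of cells, and plasmacytoid dendritic cells have exactly 2 in 76.5%.

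Within monocytes 11 of the 15 pairs of genes occurred together more often in all 4 libraries than their separate shares would give. Plac8 and Ly6c2 were detected together in 65.0% of 417 monocytes, where independence would give 57.9%, and the ratio of both lay between 1.05 and 1.16 in the 4 libraries. The pair with the highest ratio was Ifitm6 with Hp, the pair that neutrophils express too, found together in 23.0% against 16.0%, with ratios from 1.16 to 1.79. Plac8 and Hp had a ratio under 1 in Control 1 (0.871) and above 1 in the other 3 libraries. Deeper cells detect more genes, and at 1000 UMIs the ratio was above 1 in all 4 libraries for 7 of the 15 pairs, of which 6 had been so with all UMIs. Among them were Plac8 with Ly6c2 (1.03 to 1.49) and Ifitm6 with Hp (1.13 to 5.12). Ms4a4c with Hp (0 to 1.12) and Chil3 with Ifitm6 (0.641 to 1.90) were above 1 in 2 libraries, and Ly6c2 with Ifitm6 and with Hp went down to 0.512. In CD8 T cells Plac8 and Ly6c2 were found together in 17.6%, where independence would give 9.93%, in conventional dendritic cells in 12.9% against 7.03%, and in NK cells in 4.20% against 6.29%. These values pool mice that differ in both genes, and pooling alone can move them away from independence. In CD8 T cells hucMSC-Exo 1 was the lowest library for both genes, which raises the pooled excess. Ratios within single libraries are not given here for CD8 T cells and conventional dendritic cells. The pooled NK value includes the mice that stood at opposite ends for both genes, and the ratio in NK cells was under 1 in each of the 4 libraries, with 0.972 the highest.

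The comparison the study was designed for, hucMSC-Exo against Control, gave no called gene in the monocytes. Of 5721 genes tested 0 passed (0%) with edgeR's quasi-likelihood test, 72 had an unadjusted p under 0.05, and DESeq2 called 0. In conventional dendritic cells, NK cells and CD4 T cells 0 of 4658, 2297 and 5770 genes passed (0% each), with 80, 55 and 179 at an unadjusted p under 0.05 and 0, 1 and 0 called by DESeq2. For the 6 genes in monocytes the log2 difference of hucMSC-Exo minus Control was 0.19 ± 0.46 for Plac8, -0.48 ± 0.76 for Ly6c2 and -0.21 ± 0.36 for Chil3. It was -0.81 ± 0.49 for Ms4a4c, 0.87 ± 0.40 for Ifitm6 and 0.65 ± 0.40 for Hp, and the adjusted p of each was 1.00. The groups as titled overlapped for all 6 genes in the levels given above, and hucMSC-Exo 1 was the lowest library for each of them but Ifitm6. The overlap holds for the titles only, and the pairs given by the matrix names were not compared as groups. With 2 mice per group a p that missed the threshold does not show that the groups were alike.

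One library decided several of these values. Without hucMSC-Exo 2, Ly6c2 in monocytes was lower in the remaining hucMSC-Exo library by -2.61 with an adjusted p of 0.0216 in edgeR's test, and without hucMSC-Exo 1 its difference was 0.36. In NK cells the Control mice at opposite ends set the direction of both genes. Plac8 (-0.60 ± 0.84) was lower in hucMSC-Exo by -1.48 without Control 1 (adjusted p = 0.0132 in edgeR's test) and higher by 2.51 without Control 2 (adjusted p = 0.00339). Ly6c2 (-0.56 ± 0.77) was at 1.65 without Control 1 (adjusted p = 0.0964) and at -1.45 without Control 2 (adjusted p = 0.0209). In conventional dendritic cells Ly6c2 (0.51 ± 0.85) was at 2.05 without Control 1 (adjusted p = 4.14e-05). Each such fit compares 2 mice of a group with a single one, which is assumed to vary like the others. In CD4 T cells Ly6c2 had the lowest unadjusted p of these genes, 0.00387, with a difference of -1.34 ± 0.33 and both hucMSC-Exo libraries (37.2 and 30.4 CPM) below both Control libraries, and its adjusted p of 1.00 missed the threshold. Without Control 2 the difference was -1.68 (adjusted p = 0.0400), and with clusters in place of gates it was -0.41. At 1000 UMIs a monocyte held on average 2.15, 1.89, 1.22 and 2.45 of the 6 genes in the 4 libraries. The difference of hucMSC-Exo minus Control was -0.18 genes (exact two-sided permutation test, p = 1, smallest possible p 0.333), and it was 0.43 without hucMSC-Exo 1.

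The relatives of the 6 genes by family name are 14 genes of the Ly6, chitinase-like, Ms4a and Ifitm families. Of the 9 tested between monocytes and macrophages 3 were higher in monocytes and 0 lower, with a median of 0.05. These were Ifitm1 by 2.31 ± 0.16, Ifitm2 by 0.94 ± 0.13 and Ifitm3 by 2.01 ± 0.11, the broadly expressed antiviral members of the family. Ms4a6b (-0.07 ± 0.14), Ms4a6d (-0.20 ± 0.13) and Ly6e (0.10 ± 0.11) did not pass, and Ms4a6c is a gate gene. Between monocytes and neutrophils 7 of 10 relatives were higher in monocytes and 3 lower, the latter being Ifitm1, Ifitm2 and Chil1. Chil1, another chitinase-like gene on a chromosome other than that of Chil3, was at 110 ± 17.9 CPM in neutrophils and at 0.24 ± 0.49 CPM in monocytes (n = 4 each). Ms4a4b, the T and NK cell relative of Ms4a4c, was at 708, 573 and 279 CPM in NK, CD8 and CD4 T cells (means of 4 libraries) and at 9.51 CPM in monocytes. Against conventional dendritic cells, 5 of 9 relatives were higher in monocytes and 2 lower, and 2 of 8 were higher in plasmacytoid dendritic cells and 6 lower. Against CD4 T cells, 1 of 7 was higher in NK cells and 2 lower, and 2 of 7 were higher in CD8 T cells and 4 lower.

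Sequence shared with other genes set a limit to the counts of 3 of the genes. In the last 500 bases of the transcripts, where this 3′ chemistry reads, 34.6% of the 50-base words of Ly6c2 also occur in other genes, nearly all in Ly6c1. The shares were 17.8% for Chil3, with Chil4, and 11.1% for Ms4a4c, mainly with Ms4a4b, and 0% for Plac8, Ifitm6 and Hp. Ly6c1 was at most 12.2 CPM in any class and library with at least 10 cells and Chil4 at most 1.105 CPM, and how the counting treated shared reads is not given in the sources used here. In NK and T cells, where Ms4a4b was high, the low Ms4a4c counts (mean 15.8 to 28.7 CPM) are uncertain for this reason.

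Of 18 genes of monocyte transcription and differentiation, 14 were tested between monocytes and macrophages, where 5 were higher and 6 lower in monocytes. Among the higher were Cd14, a receptor for bacterial lipopolysaccharide (0.99 ± 0.12), Cebpb (0.70 ± 0.10), Csf2ra (0.68 ± 0.14) and Zeb2 (0.46 ± 0.11). Lower were Klf2 (-1.86 ± 0.24), Cebpa (-1.54 ± 0.29), Klf4 (-0.995 ± 0.153), Nr4a1 (-0.95 ± 0.17), Irf8 (-0.43 ± 0.13) and Csf1r (-0.31 ± 0.11), the last of these a gate gene. Spi1, which encodes PU.1, differed by 0.29 ± 0.12 and did not pass. Against neutrophils 3 of 13 tested genes of this list were higher in monocytes and 6 lower, and against conventional dendritic cells 7 of 12 were higher and 2 lower. In NK cells 3 of 7 were higher than in CD4 T cells and 1 lower, and in the hucMSC-Exo comparison of monocytes 0 of 14 passed. The precursor granule genes Mpo, Ctsg and Prtn3 were at 0.27, 0 and 5.58 CPM in monocytes (means of 4 libraries).

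Over 49 sums of a class in a library, the gene whose log2(CPM + 1) ran most like that of Ly6c2 among 5130 genes was Plac8 (Pearson r = 0.77), followed by Ccl4 (0.69). For Plac8 they were Tyrobp (0.77), Ly6c2 (0.77) and Cd274 (0.75). Chil3 ran most like Apoc2 (0.91), Msr1 (0.90) and Slc11a1 (0.89), genes of lipid transport, scavenging and metal transport in macrophages. Ms4a4c ran most like H2-DMa (0.87), Npc2 (0.86) and Ms4a6d (0.85). Ifitm6 ran most like Mcemp1 (0.90), Trem1 (0.87) and Mefv (0.83), of which the first 2 are gate genes, and Hp like Sirpb1c (0.89), Slc11a1 (0.88) and Arg2 (0.88). Between the 6 genes themselves r ran from 0.22, for Ly6c2 with Hp and with Chil3, to 0.78, for Chil3 with Hp and Ifitm6 with Hp. The sums share mice, libraries and depth and are not independent, so these values are descriptive.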

How the data were processed

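Single-cell libraries of 4 mice were analysed. The authors deposited UMI counts per gene and cell, made with Cell Ranger 6.1.2 on mm10 per the submitters' notes, with no normalization. Kept cells had between 200 and 3000 genes with a UMI and no more than 10% mitochondrial UMIs, and classes were gated on marker counts, leaving out 76 cells in more than 1 gate and 890 in none. Counts were summed per library and class with at least 10 cells and tested with edgeR 4.0.16 (R 4.3.3, quasi-likelihood, TMM, filterByExpr, Benjamini-Hochberg threshold 0.05), with the mouse as a block between classes and without a block between treatments. DESeq2 1.42.0, no count filter, stricter gates, clusters, doublet removal, replicate blocks and leaving out each library were alternatives. On simulated data with 200 genes changed by log2 2, 82% were recovered with 16 false calls for treatment in monocytes (4341 genes) and 99% with 5 false calls for monocytes against macrophages (4826 genes). The simulation gave all genes the same fixed spread between libraries and changed only genes with ample counts. It was not matched to the spread of these mice, so the recovery does not measure the power of the treatment comparison. Scrublet marked 30 of 6443 cells (0.466%), too few to count as working; whether doublets had been removed before deposit was not tested, and an alternative left out the 5% of highest scores. Shares were also taken after thinning each cell to 1000 UMIs, leaving out shallower cells, and intervals are 95% Clopper-Pearson, whereas the limit for a count of 0 is 3 counts of the total. The text names the 6 genes, their family relatives, 18 monocyte genes and the 3 genes most like each, among genes with a mean of at least 20 CPM. Values of 1 gene named by this rule are not reported here. The 6 genes and the lists were chosen with earlier results of these data known. Kept depth was 4779405 to 11243740 UMIs per library.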

Additional observations from a re-analysis of the deposited data

Results flagged for a closer look

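The interaction of treatment with the difference of Ly6c2 between plasmacytoid and conventional dendritic cells was -2.06 ± 0.52 on the log2 scale (hucMSC-Exo minus Control, edgeR's quasi-likelihood test, adjusted p = 0.00861). By the same test 40 of 3012 genes were called. A single Control library, Control 2, had enough plasmacytoid dendritic cells (17) to enter, so the Control side of this value is 1 mouse, the spread between mice comes from the 2 hucMSC-Exo libraries and the spread shared over genes, and a difference between the groups is not shown. In conventional dendritic cells Ly6c2 stood at 38.4 CPM in Control 2 and at 39.5 and 262 CPM in the hucMSC-Exo libraries, and in plasmacytoid dendritic cells at 2355 CPM and at 1804 and 2110 CPM. The conventional dendritic cells of hucMSC-Exo 2 thus stood apart, and hucMSC-Exo 1 lay near Control 2. The interactions of Plac8 (0.18 ± 0.45) and Ms4a4c (0.54 ± 0.73) in the same comparison did not pass (adjusted p = 1.00 each).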

How the results depend on the processing

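Of 307 alternative values for a gene between classes 286 kept direction and side of the threshold. Of 25 called differences between classes 20 were lost in none of their alternatives, and the 5 others were given above. The cause was not tested for any change listed here. Plac8 in CD8 against CD4 T cells ran from -0.0381 to 0.714 when 1 library was left out. For treatment in monocytes, leaving out 1 library gave -0.84 to 0.80 for Plac8, -2.61 to 0.36 for Ly6c2, -0.85 to 0.24 for Chil3, -1.43 to -0.0371 for Ms4a4c, 0.396 to 1.30 for Ifitm6 and -0.0195 to 1.11 for Hp, and -0.79 to 0.43 for the genes detected per monocyte.

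Counts of called genes for treatment in monocytes, conventional dendritic cells, NK cells and CD4 T cells, 0 each as reported, were 25, 13, 9 and 35 with no filter on low counts, and DESeq2 called 1 in NK cells. Leaving out 1 library gave 0 to 3, 1 to 105, 1 to 22 and 10 to 51. Libraries share only replicate numbers, and the deviations of same-numbered libraries correlated by -0.174, -0.0598, -0.0966 and 0.0756. The replicate block called 0 genes in each, with Plac8 in monocytes at -0.0265. A crossed pairing, added after the data were seen, called 6 in monocytes, with Plac8 at -0.0319.

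Monocytes against macrophages (1786 called) gave 987 with DESeq2, 776 with no replicate block and 999 to 1864 without 1 library, the lowest without hucMSC-Exo 2. Monocytes against neutrophils (2803) gave 1837 to 3029 without 1 library, the lowest without Control 2. Monocytes against conventional dendritic cells (1872) gave 1211 with DESeq2 and 1149 to 1911 without 1 library, the lowest without Control 2. Plasmacytoid against conventional dendritic cells (847) gave 521 with DESeq2, 1325 with no filter, 1454 with 1 more marker per gate, 1596 with clusters and 433 to 947 without 1 library, the lowest without hucMSC-Exo 2. NK against CD4 T cells (855) gave 499 with DESeq2. CD8 against CD4 T cells (261) gave 90 with DESeq2, 92 with 1 more marker, 419 with clusters, 55 with no replicate block and 94 to 304 without 1 library, the lowest without Control 2. Classes of few cells limit the depth, and the plasmacytoid comparison without Control 1 was not run because that library was not in it.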

Other observations

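Monocytes with at least 2 genes of non-classical monocytes were 13 cells, chosen after values had been seen. Ifitm6 was found in 76.9% of them (95% Clopper-Pearson interval 46.2 to 94.96%) and in 26.8% (22.0 to 32.0%) of the 321 monocytes with none, at median depths of 6578 and 6602 UMIs, and at 1000 UMIs per cell in 23.1% and 7.81%. Plac8 was found in 92.3% and 80.7% of the same cells and Ly6c2 in 69.2% and 67.9%. These shares pool 4 mice and were not tested.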
